A study of Bos taurus with 15 samples.

Results

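The genes described here are 10 members of the circadian clock, measured in the biceps brachii, a skeletal muscle of the forelimb, of 8 prednisolone-treated and 7 control cattle. They were taken by name: BHLHE40, NR1D1, NR1D2, PER1, PER2, PER3, CRY1, CRY2, DBP and TEF. Their probes were found by gene name, gene identifier, transcript accession, or the human symbol or gene name in the probe's description. The array names BHLHE40 by its older symbol BHLHB2. Of the 10 genes, 9 had a probe, and together they had 12 of the 21475 probes of the array. No probe was matched to NR1D1, which is not analysed here. PER3 had 3 probes, TEF had 2 and the other genes 1 each; the brightest probe represents a gene and the others are given beside it.

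The circadian clock of mammalian cells is a loop of transcription and repression. The activators CLOCK and ARNTL, or NPAS2 in place of CLOCK, bind E-box elements and switch on the PER and CRY genes, whose proteins return to the nucleus and repress CLOCK and ARNTL. The same activators drive NR1D1 and NR1D2, which repress ARNTL; BHLHE40, which competes for E-boxes; and the PAR bZIP factors DBP and TEF, which pass the rhythm on to output genes. In mouse muscle many of these transcripts cycle, and their phases differ between genes. Glucocorticoid hormones act directly on PER1 through the glucocorticoid receptor.

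Each animal gave 1 single-colour Agilent array. Animals P25 to P32 were given the synthetic glucocorticoid prednisolone orally, 30 mg daily per head over 35 days, and their RNA was extracted with TRIzol and cleaned on RNeasy MinElute columns. Animals C17, C18 and C20 to C24 are labelled as controls, and their RNA was extracted with the RNeasy Mini kit. The protocol text of the controls also names Finaplix, Revalor and Revalor with dexamethasone, although every one of these samples carries the control label. Muscle was collected at the slaughterhouse, and the hour of collection is not given in the labels. Treatment, RNA extraction and any difference in trial or hour of collection between the groups therefore cannot be told apart. In whole muscle, fewer cells of a type and less RNA per cell also cannot be told apart.

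Between 72.1% (C17) and 87.4% (C20) of the spots of an array had a value. Of the 9 skeletal muscle markers tested, 8 were well above background on all 8 prednisolone arrays, and the mean log2 intensity of the 9 lay between 14.21 and 15.16 in prednisolone animals and between 14.37 and 15.11 in controls. CASQ1, the calcium buffer of fast fibres, was not well above background on any prednisolone array. Signal of other tissues also varied between animals: the 7 testis germ cell markers with a value in every animal averaged 4.02 to 11.47 in prednisolone animals, highest in P31, and 6.51 to 12.21 in controls, highest in C20. The 6 such thymocyte markers averaged 5.27 to 10.02 in prednisolone animals, highest in P30, and 5.52 to 10.98 in controls, highest in C17. Read as differences between groups, 11 of 12 testis germ cell markers were negative (median -1.85), 9 of 10 hepatocyte markers positive (0.50), 5 of 6 smooth muscle and pericyte markers positive (0.37), 5 of 6 endothelial markers negative (-0.24), 6 of 6 adipocyte markers positive (0.45) and 5 of 5 Schwann cell markers positive (0.37). The other lists were thymocyte (6 of 9 negative, -0.22), leukocyte (6 of 8 negative, -0.26), fibroblast (4 of 5 negative, -0.18) and skeletal muscle markers (6 of 9 negative, -0.053), and limma called 0 markers of any list. Only 4 of 10 hepatocyte and 2 of 12 testis germ cell markers were well above background on all 8 prednisolone arrays. For thymocyte, adipocyte and Schwann cell markers it was 5 of 9, 4 of 6 and 3 of 5. As differences of medians, ALB, APOA1, FGA, FGG and TTR were negative and the other hepatocyte markers positive. The mean of the adipocyte markers with a value in every animal was 7.46 to 9.82 in prednisolone animals and 7.21 to 9.27 in controls, and that of smooth muscle and pericyte markers had a median of 11.58 in prednisolone animals and 11.18 in controls. The part of these signals in the results below was not tested.

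Values are log2 intensities after each array was shifted to a common 75th percentile. A difference is the prednisolone mean minus the control mean, tested with limma over all 20894 probes with enough values and adjusted by Benjamini-Hochberg. At an adjusted p under 0.05 limma called 0 probes, or 0.0% of those tested, and the smallest adjusted p was 0.993. At an unadjusted p under 0.05 it picked 699 probes, 3.35% of those tested, of which 340 (1.63%) were higher and 359 (1.72%) lower in prednisolone animals. Levels of different probes are not compared with each other, except that the signal of NR1D2 is placed among bright probes.

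No clock gene passed the test, and all 9 measured genes had a higher mean in prednisolone animals (8 of 9 without P29). A positive difference was found for 52.1% of the 15099 genes tested. The median difference of the 9 genes was 0.28, and that of all genes tested was 0.01. For 7 of the 8 clock genes with a value in every animal, at least 6 of the 8 prednisolone animals lay above the control median; this was so for 21.9% of all genes with a value in every animal. The 2 groups overlapped for each of the 9 genes, as they did for all but 0.278% of the probes tested. These genes were drawn up with earlier results of the same arrays known, so the shared direction is a description. Without C20 and P31 all 9 differences were positive, with a median of 0.22, and none had an unadjusted p under 0.05 by limma.

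**Figure D1:**
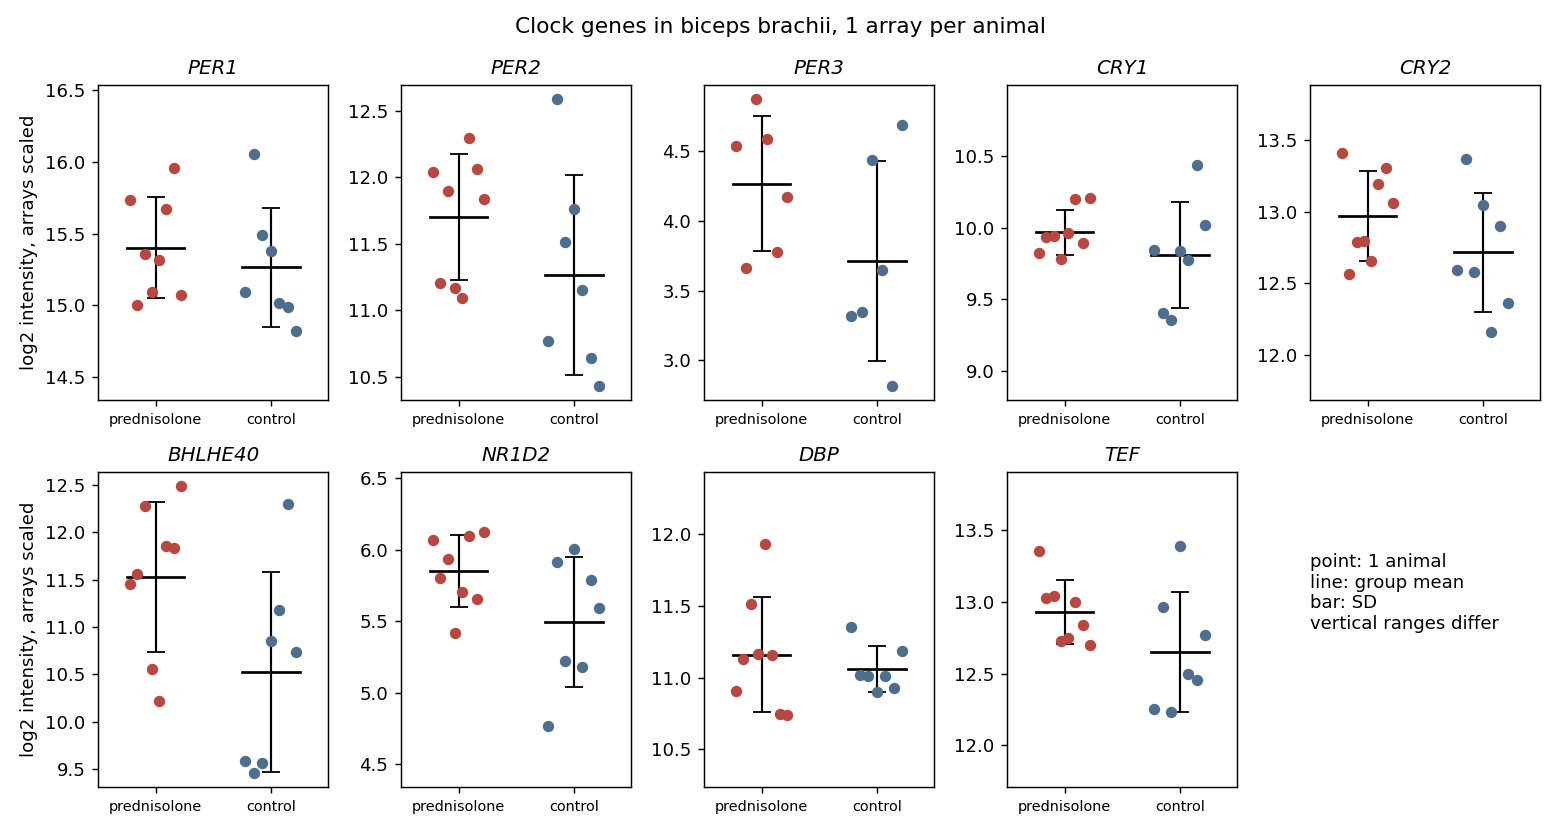
Log2 intensity of each of the 9 measured clock genes, with 1 point per animal, prednisolone animals on the left and controls on the right of each panel, a line at the group mean and a bar of 1 SD to either side. The groups overlap in every panel; the largest gap between means is that of BHLHE40, 11.53 against 10.53, and PER3 has values in 6 animals of each group only.

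The period genes encode the repressors that pair with cryptochromes. PER1, also a direct target of the glucocorticoid receptor, had a lowest value of 15.00, a median of 15.34 and a highest value of 15.96 in prednisolone animals, against 14.82, 15.09 and 16.05 in controls. The highest animals were C18 in the controls and P31 in the prednisolone group, and the control range held all prednisolone values. The mean was 15.40 ± 0.35 in prednisolone animals (SD, n = 8) and 15.26 ± 0.42 in controls (SD, n = 7). The difference was 0.14 (95% interval -0.28 to 0.56, limma adjusted p = 0.993), and 6 of 8 prednisolone animals lay above the control median. Without P31 it was 0.058, without C18 it was 0.27, and without C20 and P31 it was 0.096.

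PER2, the partner of PER1 in the repressor complex, had a lowest value of 11.09, a median of 11.87 and a highest value of 12.30 in prednisolone animals. The controls ran from 10.43 through a median of 11.15 to 12.59. Controls C17, C23 and C24 lay under every prednisolone animal, while C18 lay above all of them. The mean was 11.70 ± 0.47 in prednisolone animals (SD, n = 8) and 11.27 ± 0.75 in controls (SD, n = 7), a difference of 0.44 (95% interval -0.21 to 1.08, limma adjusted p = 0.993), with 7 of 8 prednisolone animals above the control median. Without C18 the difference was 0.66.

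PER3 was close to the background. Its brightest probe was well above background on 4 of the 8 prednisolone arrays and had a value in 6 animals of each group, with a lowest value of 3.66, a median of 4.36 and a highest of 4.88 in prednisolone animals, against 2.82, 3.50 and 4.69 in controls. All 6 prednisolone animals with a value lay above the control median, but only C18, C20, C22 and C23 lay outside the prednisolone range, on its low side. The difference was 0.56 (95% interval -0.17 to 1.28, limma adjusted p = 0.993). The other PER3 probes were well above background on 0 of 8 prednisolone arrays and differed by 0.28 and 0.12. Taken as the mean of all its probes, which have values in different animals, PER3 differed by -0.15.

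The cryptochromes are the stronger repressors of CLOCK and ARNTL. CRY1 had a lowest value of 9.78, a median of 9.94 and a highest of 10.21 in prednisolone animals, against 9.35, 9.84 and 10.44 in controls. Every prednisolone value lay within the control range, with C18 and C20 at its low end and C23 at its top. The SD was 0.16 in prednisolone animals and 0.37 in controls, a ratio of 0.43, and the means, 9.97 and 9.81, differed by 0.16 (95% interval -0.16 to 0.48, limma adjusted p = 0.993). The difference was 0.081 without C20, 0.26 without C23, 0.091 without C20 and P31, and 0.056 with limma's array weights.

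CRY2 had a lowest value of 12.56, a median of 12.93 and a highest of 13.41 in prednisolone animals. In controls it had 12.16, 12.59 and 13.37. The top of both groups was nearly level, set by P25 and C18, while C22 and C24 lay under every prednisolone animal. The mean was 12.97 ± 0.31 in prednisolone animals (SD, n = 8) and 12.72 ± 0.42 in controls (SD, n = 7), a difference of 0.26 (95% interval -0.15 to 0.66, limma adjusted p = 0.993), and 7 of 8 prednisolone animals lay above the control median.

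BHLHE40, a basic helix-loop-helix repressor that occupies the same E-boxes as CLOCK and ARNTL and also responds to hypoxia and to hormones, had the largest difference of the 9 genes. Its lowest value, median and highest value were 10.21, 11.70 and 12.49 in prednisolone animals, against 9.46, 10.74 and 12.30 in controls. Controls C17, C18 and C20 lay between 9.46 and 9.58, below every prednisolone animal, but C23, at 12.30, was above all prednisolone animals except P32. Prednisolone animals P28 and P29, at 10.55 and 10.21, lay below the control median.

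The mean of BHLHE40 was 11.53 ± 0.79 in prednisolone animals (SD, n = 8) and 10.53 ± 1.06 in controls (SD, n = 7). The difference of 1.01 is a ratio of 2.01 (95% interval 1.03 to 3.90), with an unadjusted p of 0.0409 and an adjusted p of 0.993 by limma. It was the single clock gene with an unadjusted p under 0.05. Without C20 and P31 the difference was 0.80, without C17 it was 0.85, without C18 it was 0.83, and with limma's array weights it was 0.57. Among controls these weights were lowest for C20 (0.473), C17 (0.544) and C18 (0.69), the controls below every prednisolone animal. BHLHE40 also varied more within groups than most bright probes. Its within-group SD of 0.92 was above that of 96.0% of these 11833 probes. Bright probes were well above background on all prednisolone arrays and had a value in every animal.

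NR1D2, the REV-ERB beta nuclear receptor that represses ARNTL, had a lowest value of 5.42, a median of 5.86 and a highest of 6.12 in prednisolone animals. The controls had 4.77, 5.59 and 6.01. Controls C17, C20 and C22 lay under all prednisolone animals, and P30 and P32, with P25, lay above all controls. The mean was 5.85 ± 0.25 in prednisolone animals (SD, n = 8) and 5.50 ± 0.45 in controls (SD, n = 7). The difference was 0.35 (95% interval -0.042 to 0.75, unadjusted p = 0.0764 and adjusted p = 0.993 by limma), with 7 of 8 prednisolone animals above the control median. Without C17, the control with the highest thymocyte markers, it was 0.23. C17 also had the fewest spots with a value (72.1%) and an array weight of 0.544. With quantile normalization the difference of NR1D2 was 0.49. Its probe was dim among the bright probes, of which 8.80% had a lower level.

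The PAR bZIP factors DBP and TEF carry the clock's rhythm to output genes. DBP had a lowest value of 10.74, a median of 11.14 and a highest of 11.94 in prednisolone animals, against 10.90, 11.01 and 11.36 in controls. The prednisolone range was the wider, with P31 and P32 below all controls and P27 and P29 above all controls. The SD was 0.40 in prednisolone animals and 0.16 in controls, a ratio of 2.54. Of the bright probes, 43.0% had the larger SD in prednisolone animals. Bright probes were chosen by background flags of prednisolone arrays only, so this share is not an even background for the ratio. The means, 11.16 and 11.06, differed by 0.10 (95% interval -0.25 to 0.46, limma adjusted p = 0.993), and without P29 the difference was -0.0080. It was 0.16 with array weights and 0.15 without C20 and P31.

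TEF had a lowest value of 12.70, a median of 12.92 and a highest of 13.36 in prednisolone animals, against 12.23, 12.50 and 13.39 in controls. All 8 prednisolone animals lay above the control median, which was so for 2.1% of genes with a value in every animal, yet C21 was the highest of all animals. The mean was 12.93 ± 0.22 in prednisolone animals (SD, n = 8) and 12.65 ± 0.42 in controls (SD, n = 7), a difference of 0.28 (95% interval -0.088 to 0.64, limma adjusted p = 0.993). The other TEF probe, well above background on 5 of 8 prednisolone arrays, differed by 0.015.

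**Figure D2:**
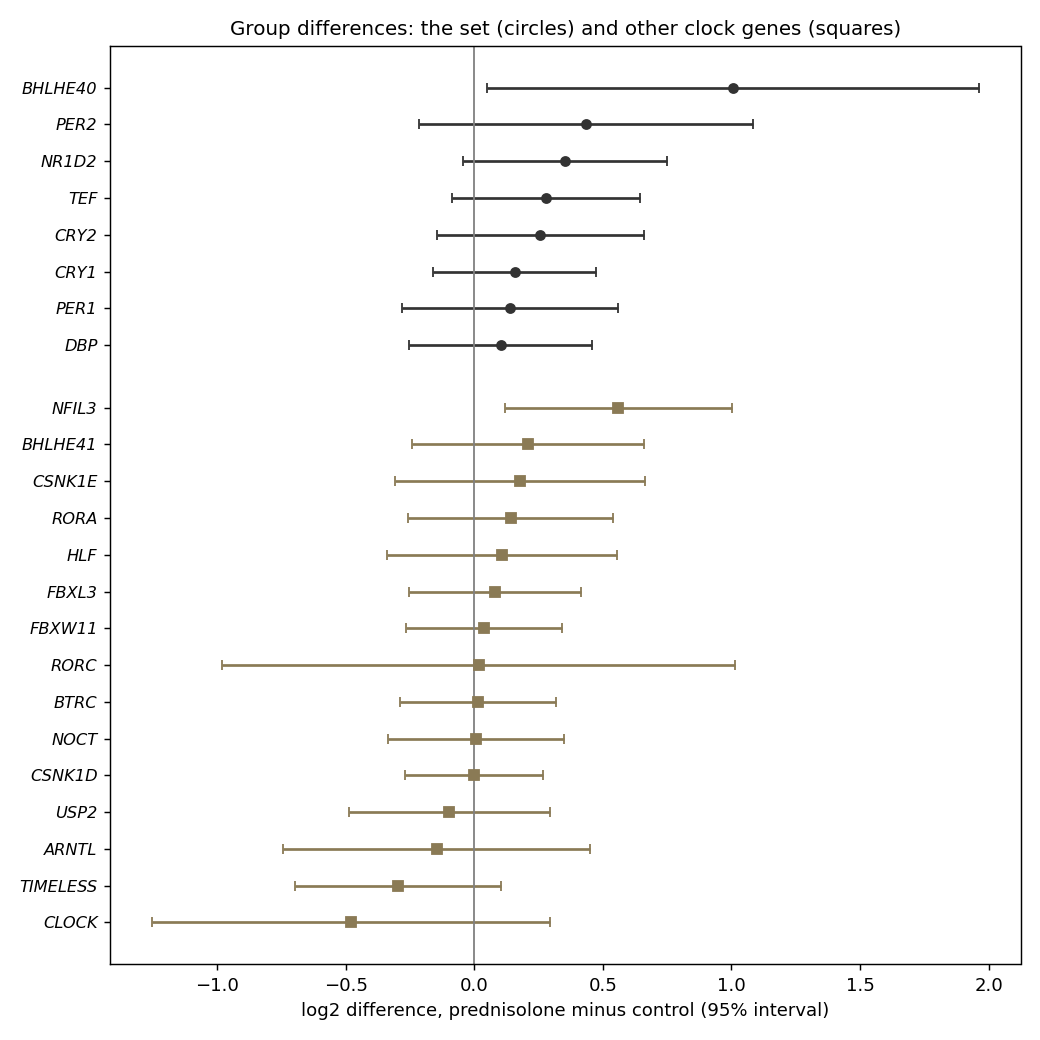
Difference in log2 intensity (prednisolone minus control, horizontal axis) with its 95% interval for the 8 clock genes and 15 of their partner genes that were well above background on all 8 prednisolone arrays. The interval of BHLHE40 (0.048 to 1.96) and that of NFIL3 (0.12 to 1.0) lie above 0, and the other intervals include 0.

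Among the other genes of the clock the directions were mixed. Of 20 partner genes (activators, ROR receptors, kinases, ubiquitin ligases and further PAR bZIP and basic helix-loop-helix factors), 18 were tested. Limma called 0 of them; 11 differences were positive and 7 negative, with a median of 0.016. CIART and FBXL21 were not tested.

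The activator ARNTL had a mean of 7.82 ± 0.66 in prednisolone animals (SD, n = 8) and 7.97 ± 0.42 in controls (SD, n = 7), a difference of -0.15 (95% interval -0.74 to 0.45, limma adjusted p = 0.993). For CLOCK the means were 8.93 ± 0.70 in prednisolone animals and 9.41 ± 0.78 in controls, a difference of -0.48 (95% interval -1.25 to 0.29), while the difference of the medians was 0.28, of opposite sign. CLOCK was highest in C20, at 10.41, and in P31, at 9.73, the animals with the highest testis germ cell markers of their groups. Its other probe was likewise highest in C20, at 7.41, and P31, at 6.77. NPAS2 was well above background on 1 prednisolone array and had a value in 4 prednisolone and 6 control animals.

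NFIL3, a bZIP repressor that binds the same D-box elements as DBP and TEF with the opposite effect, was the partner gene with the smallest p. It had a lowest value of 8.02, a median of 8.29 and a highest of 9.54 in prednisolone animals, against 7.50, 7.81 and 8.35 in controls. All 8 prednisolone animals lay above the control median, and the ranges overlapped through C20 and C22. The mean was 8.41 ± 0.48 in prednisolone animals (SD, n = 8) and 7.85 ± 0.29 in controls (SD, n = 7), a difference of 0.56 (95% interval 0.12 to 1.0) with an unadjusted p of 0.0164 and an adjusted p of 0.993 by limma. P31 was its highest animal, and without P31 the difference was 0.40; without C20 and P31 it was 0.44. TIMELESS, with the next smallest p, differed by -0.30 (95% interval -0.70 to 0.10, limma adjusted p = 0.993). As the closest relatives of members, named after their values were seen, BHLHE41, the paralogue of BHLHE40, differed by 0.21 (95% interval -0.24 to 0.66) and HLF, the third PAR bZIP factor, by 0.11 (95% interval -0.34 to 0.55), which turned to -0.0027 without P25 and to -0.074 as the difference of medians.

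Because each animal was sampled once, animals at different phases of the clock would show clock genes moving together or in opposition across animals. To look for this, each gene's values were centred on the group means and correlated over the animals. The family held 63 correlations, 36 between clock genes and 27 of these genes with ARNTL, CLOCK and NPAS2, each with a two-sided permutation test within groups and p-values adjusted over all 63. Of the 36 correlations between clock genes, 18 were positive, the median r was -0.0079, and 1 passed at an adjusted p under 0.05.

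PER1 and PER2 were the genes that passed: animals high for one were high for the other. Pearson's r was 0.857 (n = 15, permutation p = 0.00026, adjusted p = 0.0164) and Spearman's rho was 0.818 (permutation p = 0.00049, adjusted p = 0.0309). C18 was the animal furthest above its group mean for both genes, by 0.79 for PER1 and 1.32 for PER2, and C24 the furthest below it, by -0.44 and -0.83. In the prednisolone group P31, P25 and P30 lay above the mean for both genes and P26, P28 and P29 below it.

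Within the groups, the r of PER1 with PER2 was 0.716 in prednisolone animals (n = 8, exact permutation p = 0.0477) and 0.959 in controls (n = 7, exact permutation p = 0.00218), neither of which passed after adjustment. Leaving out C18 and P31, the animals farthest from the median of PER1, gave r = 0.786. Without C18 alone r was 0.765, and its permutation p after adjustment, 0.147, no longer passed; without C20 and P31 it was 0.880 (permutation, adjusted p = 0.0479). Among 9624 genes with a value in every animal and well above background on all prednisolone arrays, 5 had a higher r with PER1 than PER2 had, and 11 had a higher r with PER2 than PER1 had. The mean of the 9 skeletal muscle markers, dim CASQ1 included, was likewise highest in C18 (15.11) among controls and in P25 (15.16) and P30 (15.07) among prednisolone animals. Its part in this correlation was not tested. These markers differed in spread: the SD in prednisolone animals and controls was 1.74 and 0.96 for TNNT3, but 0.25 and 0.11 for ACTA1.

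**Figure D3:**
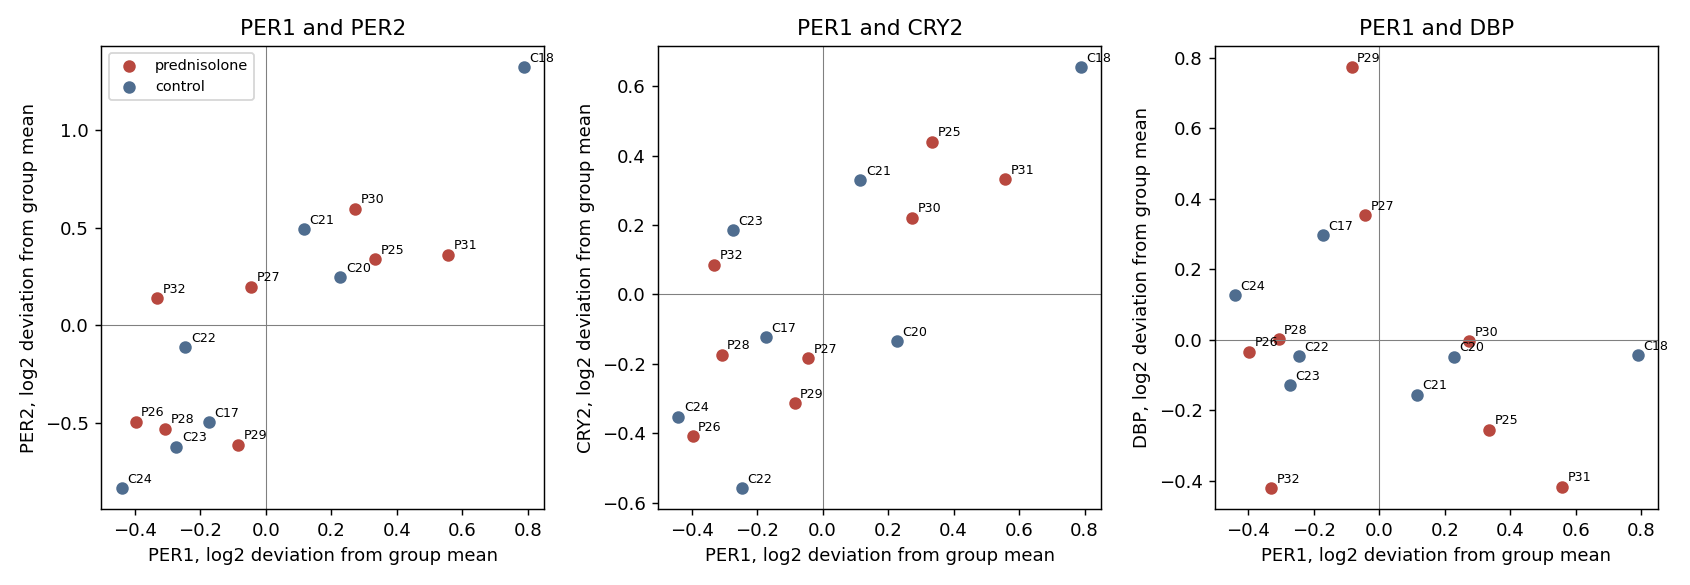
Deviation of each animal from its group mean for PER1 (horizontal axis, log2) against PER2, CRY2 and DBP (vertical axes, log2), with each point labelled by animal and coloured by group. PER2 and CRY2 run with PER1 (r = 0.857 and 0.770), with C18 at the upper right of both panels, and DBP shows little relation to it (r = -0.24).

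CRY2 had its highest correlations with PER1 and PER2, and neither passed. Both passed with values as deposited, quantile normalization, cyclic loess or no centring and without C23, and CRY2 with PER1 also without P29, P32 or C20. Its r was 0.770 with PER1 (n = 15, permutation p = 0.00183, adjusted p = 0.0576; rho 0.732) and 0.738 with PER2 (permutation, adjusted p = 0.0638; rho 0.679). Without C18 and P31 the r of CRY2 with PER1 was 0.612, and without C18 and C24 its r with PER2 was 0.574. Among the 9624 genes, 62 had a higher r with PER1 than CRY2 had, and 175 had a higher r with PER2 than CRY2 had. Read from CRY2, 26 genes had a higher r than PER1 and 51 a higher r than PER2. Both groups had the same sign: 0.794 in prednisolone animals and 0.754 in controls for PER1, and 0.831 in prednisolone animals and 0.691 in controls for PER2.

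CLOCK also varied with PER1 (r = 0.691) and PER2 (r = 0.705), each with a permutation p of 0.0638 after adjustment. Without C20 and P31, where CLOCK and the testis germ cell markers were highest, these were 0.635 and 0.718. CLOCK, an activator, thus had a positive r with these repressors. ARNTL had r = 0.050 with PER1, 0.022 with PER2, 0.20 with CRY2 and -0.055 with NR1D2. None of the 27 correlations with ARNTL, CLOCK and NPAS2 passed the permutation test after adjustment, and 11 were negative. CLOCK with PER1 and CLOCK with PER2 passed with values as deposited (permutation, adjusted p = 0.0378 and 0.0383), quantile normalization (0.0365 and 0.0451) and cyclic loess (0.0427 and 0.0442). CLOCK with PER1 also passed without P32, and CLOCK with PER2 without P29.

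The next highest correlations between clock genes joined different members. BHLHE40 and CRY1 had r = 0.737 (n = 15, permutation, adjusted p = 0.0638; rho 0.632), with C23 the highest control for both genes and P32 the highest prednisolone animal for both. This r was 0.519 in prednisolone animals and 0.851 in controls, 0.671 without C23 and P29, and 0.576 without C23 alone. It passed with values as deposited, quantile normalization, cyclic loess or no centring, and without P29. NR1D2 and TEF had r = 0.719 (n = 15, permutation, adjusted p = 0.0849; rho 0.586), with 0.473 in prednisolone animals and 0.803 in controls. It passed with quantile normalization, no centring or without P32, and was -0.64 with the mean of all probes of a gene, where the dim TEF probe lacks values. NR1D2 also had r = 0.588 with CRY2 (n = 15, permutation, adjusted p = 0.272), above the 0.553 of CRY2 with CLOCK. Its r was 0.494 with PER2, 0.438 with CLOCK and 0.286 with PER1.

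CRY1 had r = -0.078 with CRY2 and negative r with PER1 (-0.52) and PER2 (-0.45). DBP had a negative r with each of the other 7 bright clock genes, from -0.045 with CRY1 to -0.49 with CRY2, and -0.19 with TEF. None of these passed the permutation test after adjustment. With quantile normalization DBP with CRY2 did pass, at r = -0.59 (permutation, adjusted p = 0.0365). BHLHE40 and PER2 had r = 0.715 in prednisolone animals and -0.50 in controls, a difference that was not tested. PER3, with values in 12 animals, had r between -0.18 and 0.45 with the other clock genes.

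**Figure D4:**
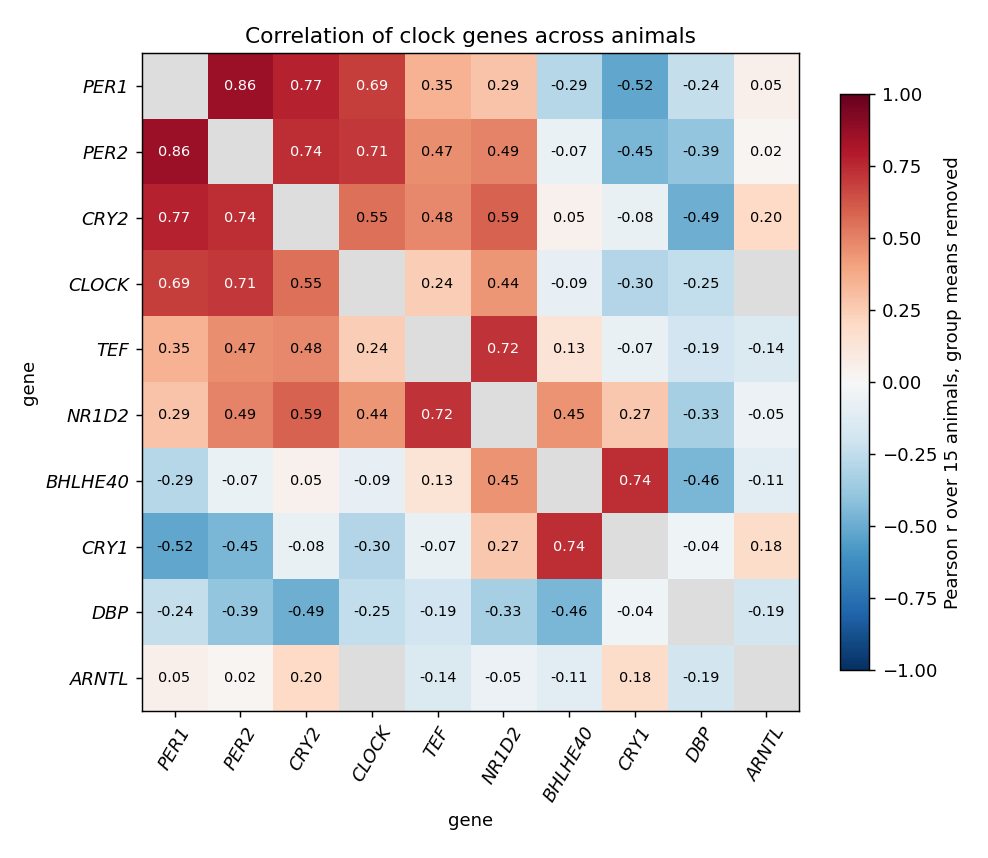
Pearson's r of group-centred log2 intensities over the animals for the 8 bright clock genes with each other and with CLOCK and ARNTL; the colour runs from negative to positive r, and grey cells were not computed. PER1, PER2, CRY2 and CLOCK form one block of high r (0.553 to 0.857), in which PER1 with PER2 alone passed after adjustment. BHLHE40 with CRY1 and NR1D2 with TEF stand beside it. NR1D2 also had r = 0.588 with CRY2, within the range of the block. The row of DBP is negative against the other bright clock genes.

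Counted by animal, P30 and C21 lay above their group mean for 7 of the 8 bright clock genes, and P28, P29 and C22 for 1 of 8. P29 was below its group mean for every bright gene except DBP, its highest gene by deviation (0.77). C18 was split: it was the furthest above the control mean for PER1, PER2 and CRY2 and the furthest below it for BHLHE40, by -1.06, and low for CRY1, by -0.40. C23 lay at 1.78 for BHLHE40, 0.63 for CRY1, 0.19 for CRY2, -0.27 for PER1 and -0.62 for PER2.

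Over 9617 other genes with a value in every animal and well above background on all prednisolone arrays, those most like each clock gene in their group-centred values are given as a description, with r over 15 animals that share the same arrays. PER1 was closest to PFKFB3 (0.893), which makes the activator of phosphofructokinase, PFKM (0.875), the muscle phosphofructokinase, and the plasma membrane calcium pump ATP2B2 (0.869). PER2 was closest to MEF2D (0.915), a muscle transcription factor, MYCBP2 (0.893) and the calcium pump ATP2B1 (0.885). CRY2 was closest to CDH15 (0.906), the cadherin of satellite cells and myotubes, USP28 (0.887) and the formin FHOD1 (0.852).

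CRY1 was closest to PIAS2 (0.882), MED18 (0.842) and NDUFAF7 (0.809), and BHLHE40 to the kinase MAP3K14 (0.884), the cathepsin CTSV (0.846) and fumarate hydratase, FH (0.840). Among the genes most like NR1D2 were MICAL3 (0.827) and FRAT2 (0.814), and TEF was closest to the kinase NUAK1 (0.866), AP1G1 (0.856) and IGIP (0.850). DBP had the highest values of all, with TMEM82 (0.945), the spectrin SPTB (0.941) and WIPI2 (0.938). At the opposite end, r was lowest with MRPS18A for PER1 (-0.93), IFIT5 for PER2 (-0.91), SLC16A7 for CRY2 (-0.89), ANKRD50 for CRY1 (-0.77), SRSF6 for BHLHE40 (-0.85), CEP44 for NR1D2 (-0.86), RND2 for TEF (-0.84) and EMC1 for DBP (-0.93).

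Genes that answer to the inputs and outputs of the clock were read beside these members. Of 19 glucocorticoid-responsive genes, PER1 included, limma called 0; 2 differences were positive and 17 negative, with a median of -0.21. TXNIP, the thioredoxin inhibitor, had a mean of 11.43 ± 0.48 in prednisolone animals (SD, n = 8) and 12.25 ± 0.29 in controls (SD, n = 7), a difference of -0.82 (95% interval -1.26 to -0.39, unadjusted p = 0.00113 and adjusted p = 0.993 by limma). The kinase SGK1 differed by -0.79 (95% interval -1.39 to -0.19, unadjusted p = 0.0133, limma). Also at an unadjusted p under 0.05, and named after their values were seen, were PDK4, which shuts off pyruvate dehydrogenase, at -0.95, and ERRFI1, an inhibitor of EGF receptor signalling and the positive gene besides PER1, at 0.69.

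Of 16 immediate early genes, which answer to handling and serum signals as PER1 also does, 11 differences were positive and 5 negative, with a median of 0.15 and 0 called by limma, at an unadjusted p under 0.05 as well. IER3 differed by 0.77 (95% interval -0.031 to 1.57) and CCN2, a secreted matrix protein, by 0.42 (95% interval -0.17 to 1.02), with a difference of medians of -0.050. Without C20 and P31, 8 of the 16 were positive and the median was 0.0029. Of 12 hypoxia genes, a signal to which BHLHE40 responds, 8 were positive and 4 negative, with a median of 0.13 and 0 called either way. Without C20 and P31 their median was 0.058, and 1 was lower at an unadjusted p under 0.05 by limma. The values that follow are over all animals. BNIP3, a mitophagy receptor, differed by 0.15 (95% interval -0.086 to 0.38). CA9, with the smallest p of the list, differed by -2.60 (95% interval -5.30 to 0.097, unadjusted p = 0.0575 by limma). CA9 had a value in 7 prednisolone and 5 control animals and was well above background on 2 of the 8 prednisolone arrays only. Of 12 genes known, mostly in mouse, as targets of PAR bZIP factors or REV-ERBs, 4 were positive and 8 negative, with a median of -0.081 and 0 called either way. Without C20 and P31, 6 were positive and 6 negative, with a median of -0.026, and 1 was lower at an unadjusted p under 0.05 by limma. Over all animals the mitochondrial carrier UCP3 of this list differed by -0.72 (95% interval -1.55 to 0.10, unadjusted p = 0.0806 by limma). CYP2A13 was well above background on 2 of the 8 prednisolone arrays only.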

How the data were processed

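The authors deposited, per array, linear spot intensities made with R 2.11.1, per the submitters' processing notes; the sources used here do not state how arrays were scaled to each other. For the 8 prednisolone arrays the deposited values correlated with the processed signal in the scanner files, on the log2 scale, at 0.999789 to 0.999991 over 42990 spots, and were empty exactly where a spot was not found, per the file headers' flags. Those files came from Feature Extraction 9.5.1.1, 5 slides and 3 scan days; slides and scan days of controls were not used here. The scan day with the most animals held 5, under the 6 required here for a correlation across animals, and the other days and every slide held 2 or fewer.

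Here intensities were put on the log2 scale, each array was shifted to a common 75th percentile over probes with a value on all 15 arrays, and spots of a probe were averaged. Probes with at least 3 values per group were fitted with limma 3.58.1 in R 4.3.3 over the 15 animals (Benjamini-Hochberg, threshold 0.05). P-values measure the spread between these animals. The spread between animals within groups and the number of arrays limit the precision: the median 95% interval reached 0.45 on the log2 scale to either side. The part of signal over background in this spread was not tested. The script was tested on simulated data. Gene names came from the array's columns and RefSeq tables (17059 of 21475 probes named, 4416 not). Correlations used group-centred values and 100000 permutations within groups.

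The members and lists were chosen with earlier results of these data known. Named genes are all members, the activators used in the correlations, the 2 genes with the smallest p of each list, and for each member the 3 genes with the highest r and the 1 with the lowest, among genes with all values and well above background on all prednisolone arrays; others are marked as named after their values were seen, and 1 gene that the rule picks is not reported here. Alternatives were other scalings, array weights, filters on dim probes, means over probes, an exact Wilcoxon test, Spearman's rho, uncentred values, each group alone, and leaving out animals.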

Additional observations from a re-analysis of the deposited data

Results flagged for a closer look

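Of 24 sets of values (12 clock gene probes in each group), 1 held an animal far from the others by Dixon's criterion, which chance meets in about 1 in 20 sets. For the dim TEF probe, P32 had 3.63 and the other prednisolone animals with a value had 4.36 to 4.77. P32 was also the lowest prednisolone animal on the bright TEF probe, at 12.70, where it did not stand apart.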

How the results depend on the processing

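For 8 of the 9 clock genes the difference kept its sign in every alternative that used all animals, and no difference passed in any; PER3 was -0.15 as the mean of all its probes, which have values in different animals, and DBP was -0.0080 without prednisolone replicate 29, so that 8 or 9 genes were positive when animals were left out in turn. Over such omissions BHLHE40 ran from 0.83 to 1.30, NR1D2 from 0.23 to 0.44, PER1 from 0.058 to 0.27, PER2 from 0.30 to 0.66, PER3 from 0.38 to 0.76, CRY1 from 0.081 to 0.26, CRY2 from 0.16 to 0.37, DBP from -0.0080 to 0.16 and TEF from 0.21 to 0.40. Probes past the threshold stayed at 0 except for 1 without C20 and P31 and 0 to 1 when an animal was left out. Probes with an unadjusted p under 0.05 numbered 1357 with array weights (504 higher, 853 lower). They numbered 384 among probes well above background on all prednisolone arrays, and 1137 without C20 and P31. Without 1 animal they numbered 585 to 1470, the highest being without P31. Quantile normalization gave 362 higher and 202 lower. Clock gene pairs past the threshold numbered 4 with values as deposited, 6 with quantile normalization, 4 with cyclic loess, 5 without centring, 0 in prednisolone animals alone, 0 in controls alone, 0 with normexp correction of prednisolone arrays, and 0 to 3 without 1 animal (0 without C18, 2 without C20, 3 without P29, P32 or C23). PER1 with PER2 gave r = 0.716 in prednisolone animals alone, 0.959 in controls alone and 0.739 with normexp, none past the threshold over fewer animals, and 0.765 to 0.907 without 1 animal. NR1D2 with TEF was -0.64 with the mean of all probes. As differences of medians CLOCK was 0.28, HLF -0.074 and CCN2 -0.050, and HLF ran from -0.0027 (without P25) to 0.24 without 1 animal. The cause of the other changes was not tested. No paired analysis was possible because the groups share no replicate numbers.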
